A study of Mus musculus with 24 samples.

Results

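The 9 genes described here encode the main proteins of the elastic fibre: Eln, Fbn1, Fbln1, Fbln2, Fbln5, Efemp2, Emilin1, Lox and Loxl1. They were found in the deposited count files by matching Ensembl gene identifiers to these symbols. All 9 were among the 52350 genes counted, and 9 of 9 were among the 15294 genes that passed the filter on low counts. Poly-A RNA from 24 hearts of wild-type male C57Bl/6 mice aged 12 weeks was sequenced, 1 library per mouse. The mice were kept on a light:dark cycle of 12:12, were accustomed to a treadmill, and were handled under red light in the dark phase. The ZT0-EX and ZT12-EX groups ran a single bout of 60 min at 10 m/min on a 0% grade, at lights-on (ZT0) or at lights-off (ZT12). The ZT0-SED and ZT12-SED groups were the sedentary controls of the same times of day. Each group had 6 mice, of which replicates 1 to 3 were sequenced on flow cell 1 and replicates 4 to 6 on flow cell 2. How long after the bout the heart was collected is not stated in the labels.

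An elastic fibre has a core of cross-linked elastin laid on a scaffold of fibrillin microfibrils. Fibulins bring elastin, microfibrils and cross-linking enzymes together, emilin-1 sits where elastin and microfibrils meet, and lysyl oxidases cross-link elastin and collagen. In the heart the fibres lie in vessel walls, valves, the epicardium and the interstitium, and are made mainly by fibroblasts and smooth muscle cells. Elastin is long-lived, so transcript levels of these genes are not fibre content, which was not measured.

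Promoter windows are shown for Fbn1, which was lower at ZT12 in both kinds of mice below, and for Fbln1, which passed in neither comparison. Each is the 250 bases upstream of a RefSeq start site in GRCm38.p6, 5′ to 3′. The capitals in the Fbn1 window, chr2:125506439-125506688 on the minus strand, mark GGGCGG (GC box). The capitals in the Fbln1 window, chr15:85205699-85205948 on the plus strand, mark AGAACA on the opposite strand (part of the glucocorticoid receptor element) and CACGTG (the E-box that clock factors bind).
Fbn1: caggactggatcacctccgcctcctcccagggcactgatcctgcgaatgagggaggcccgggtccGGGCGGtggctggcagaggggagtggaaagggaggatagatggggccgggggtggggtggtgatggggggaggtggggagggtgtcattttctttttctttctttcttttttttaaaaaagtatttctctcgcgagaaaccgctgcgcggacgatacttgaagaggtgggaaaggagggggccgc
Fbln1: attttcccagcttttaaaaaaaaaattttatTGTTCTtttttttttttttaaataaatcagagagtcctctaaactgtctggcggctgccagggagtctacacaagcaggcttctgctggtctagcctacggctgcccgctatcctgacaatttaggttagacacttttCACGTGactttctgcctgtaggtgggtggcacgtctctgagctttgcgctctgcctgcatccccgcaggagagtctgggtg
Windows were found for 6 of the 9 members, Fbn1, Fbln1, Fbln2, Fbln5, Efemp2 and Emilin1, with 10 start sites in all. Both strands were searched. The counts that follow are per window, and both windows of Fbln1 share bases, as do those of the second and the third start site of Efemp2. CACGTG was in 2 of the 10 windows, both of Fbln1, and in 6.02% of all 32851 mouse promoter windows of this length. AGAACA was in 2 of 10, of Fbln1 and Emilin1, against 16.1% of all windows. GGGCGG was in 7 of 10, of all the genes but Emilin1, against 32.7%. TTATGNAA (the core of the D-box, a site of PAR-domain bZIP factors) was in none, against 3.07% of all windows. These matches are letters in a window and were not tied to binding.

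The libraries held 9697334 to 23067191 counts assigned to genes. CPM are counts per 1000000 counts of the library, with the library total scaled by its TMM factor. On that scale 3 counts, the limit that a count of 0 allows, are worth 0.130 to 0.575 CPM. The flow cells stood apart. Mitochondrial transcripts took 25.5 to 55.1% of the counts on flow cell 1 and 2.70 to 23.7% on flow cell 2. Within flow cell 1 they took 40.7 to 55.1% in ZT12-SED, above every other group. They took 32.4 to 36.6% there in ZT12-EX, 29.5 to 32.7% in ZT0-EX and 25.5 to 34.2% in ZT0-SED. The rank correlation, across genes, of a library's level relative to the average library with transcript GC content was 0.441 to 0.700 on flow cell 2. On flow cell 1 it was -0.821 to -0.765 in ZT12-SED, -0.718 to -0.576 in ZT12-EX, -0.232 to -0.183 in ZT0-EX and -0.510 to 0.241 in ZT0-SED. It therefore moved with time of day on flow cell 1, and ZT12-SED and ZT12-EX did not overlap there either. The libraries ZT12-SED replicates 1 and 2 and ZT12-EX replicate 4 had the lowest correlations with the rest. Skeletal muscle transcripts (Myh4, Actn3, Myh1, Mylpf, Tnnt3 and Atp2a1, summed) reached 568 to 2169 CPM in ZT0-EX replicates 4 to 6 and 510 to 788 CPM in replicate 6 of each other group.

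Fbln1 and Fbln2, which encode fibulins of the heart's interstitium, valves and vessel walls, had the highest levels per length in all 4 groups. Levels between genes were compared as CPM per kilobase of exon. Fbln1 stood at 18.8 ± 6.83 (SD, n = 6) in ZT0-SED and 18.5 ± 2.06 in ZT0-EX. At ZT12 it stood at 15.1 ± 8.13 in sedentary and 19.04 ± 8.58 in exercised mice. Fbln2 stood at 10.3 ± 0.744, 12.2 ± 1.62, 9.17 ± 3.64 and 10.9 ± 3.54 in the same order. Fbln1 was above Fbln2 by more than both SDs together at ZT0, and within them at ZT12.

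Loxl1 and Eln came next in 3 of the groups, and neighbours from there down lay within their SDs added together, except Fbln5 above Efemp2 in ZT0-EX. In ZT0-SED, Loxl1 averaged 9.69 ± 4.53, Eln 8.02 ± 2.80, Emilin1 4.75 ± 2.62, Fbn1 4.40 ± 1.24, Fbln5 3.99 ± 0.597 and Efemp2 3.22 ± 1.36 CPM per kilobase (SD, n = 6). In ZT12-SED, Fbln5 (3.66 ± 0.478) stood above Eln (3.31 ± 2.27) by less than either SD. Lox, the founding lysyl oxidase, was lowest in 3 groups, from 1.58 ± 1.08 in ZT12-EX to 1.74 ± 0.889 in ZT0-EX. In ZT12-SED, Efemp2 was lowest at 1.60 ± 1.31, beside 1.78 ± 1.28 for Lox, less than either SD apart.

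**Figure D1:**
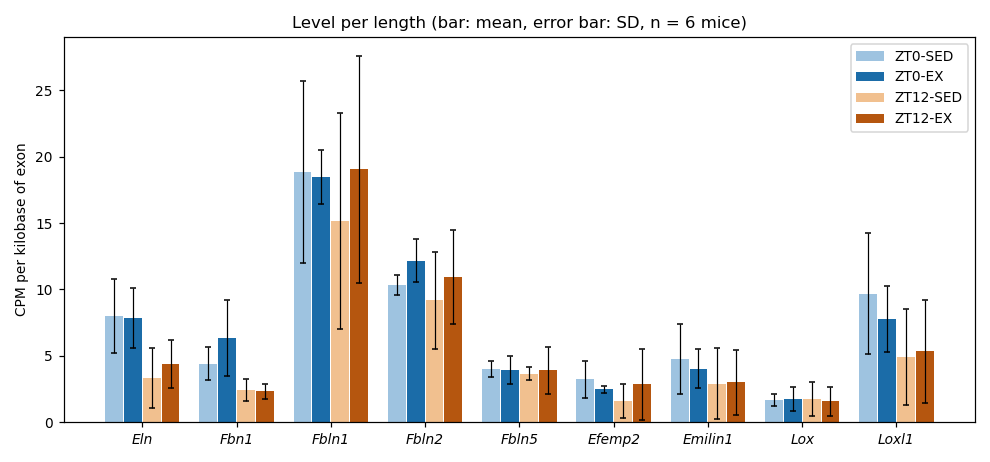
Level of each member per length (CPM per kilobase of exon, linear axis from 0) in the 4 groups, as mean and SD of 6 mice. Fbln1 averages 15.1 to 19.04 and Lox 1.58 to 1.78 in every group.

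In sedentary mice, 3 of the 9 members were lower at ZT12 than at ZT0 and none was higher. The 3 were Eln, the elastin core, Fbn1, the main fibrillin of the microfibril, and Loxl1, a lysyl oxidase that acts on elastin. The test was edgeR's quasi-likelihood test on all 24 libraries with flow cell as a term and Benjamini-Hochberg adjustment over all 15294 genes. An adjusted p below 0.05 counted as passed, here and below. At that threshold 5.20% of all genes passed, 2.46% higher and 2.74% lower. The median log2 fold change of the 9 members was -0.86 and that of all genes -0.007; all 9 estimates were negative, as were 50.5% of all genes.

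Eln read 40.3, 42.001 and 52.6 CPM in the 3 ZT0-SED mice of flow cell 1 and 78.1, 86.5 and 90.2 in those of flow cell 2. In ZT12-SED it read 8.06, 8.93 and 16.3 CPM on flow cell 1 and 32.0, 47.0 and 48.6 on flow cell 2. Every ZT12 mouse was below every ZT0 mouse of its own flow cell, while the pooled ranges overlapped. How many of all genes part in this way was not counted, here and below. The log2 fold change was -1.44 ± 0.21 (SE, n = 6 per group; adjusted p = 0.00017, edgeR). It was -2.02 ± 0.27 on flow cell 1 alone (adjusted p = 0.00091) and -1.01 ± 0.20 on flow cell 2 alone (adjusted p = 0.105), where it did not pass in edgeR's test. Without a flow cell term it did not pass either (-1.27 ± 0.40, adjusted p = 0.183, edgeR). With offsets for GC content it was -0.82 ± 0.14 (adjusted p = 0.0010, edgeR), smaller by over 1.5 times but still past the threshold. Without the 3 libraries least correlated with the rest it was -1.11 ± 0.16 (adjusted p = 0.00024, edgeR).

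Fbn1 read 36.7, 66.8 and 75.8 CPM in ZT0-SED on flow cell 1 and 41.6, 47.9 and 51.7 on flow cell 2. In ZT12-SED it read 21.5, 26.7 and 49.1 CPM on flow cell 1 and 23.5, 25.8 and 28.7 on flow cell 2. The groups overlapped on flow cell 1 through the 49.1 CPM of ZT12-SED replicate 3, and did not overlap on flow cell 2. The log2 fold change was -0.86 ± 0.23 (adjusted p = 0.0346, edgeR). Flow cell 1 alone gave -0.90 and flow cell 2 alone gave -0.87. The call was lost with GC offsets (-0.65 ± 0.22, adjusted p = 0.0989, edgeR) and without the 3 least correlated libraries (-0.65 ± 0.23, adjusted p = 0.136). It was also lost without ZT12-SED replicate 1 (adjusted p = 0.0846), ZT12-SED replicate 2 (0.102), ZT0-SED replicate 1 (0.0850), ZT0-SED replicate 2 (0.0677) or ZT0-SED replicate 4 (0.0528), all by edgeR. It was lost too with library totals in place of TMM scaling (0.0904), without a flow cell term (0.204), with the compared groups alone (0.0740) and on flow cell 2 alone (0.394).

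Loxl1 read 15.3, 15.4 and 28.5 CPM in ZT0-SED on flow cell 1 and 35.7, 47.4 and 49.4 on flow cell 2. In ZT12-SED it read 3.84, 4.66 and 9.71 CPM on flow cell 1 and 19.4, 26.3 and 32.8 on flow cell 2. The groups did not overlap within either flow cell. The log2 fold change was -1.16 ± 0.27 (adjusted p = 0.0132, edgeR). With GC offsets it was -0.44 ± 0.20 (adjusted p = 0.235, edgeR), and without the 3 least correlated libraries -0.84 ± 0.25 (adjusted p = 0.0659, edgeR), neither past the threshold. It did not pass without a flow cell term (adjusted p = 0.380, edgeR) or on flow cell 2 alone (-0.77 ± 0.30, adjusted p = 0.851).

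Emilin1 and Efemp2 (fibulin-4, which binds elastin and lysyl oxidase) had estimates as large that did not pass. For Emilin1 the log2 fold change was -1.13 ± 0.34 (adjusted p = 0.0517, edgeR), and for Efemp2 -1.23 ± 0.42 (adjusted p = 0.0707). Emilin1 read 10.0 to 13.9 CPM in ZT0-SED and 0.959 to 4.37 in ZT12-SED on flow cell 1, and 29.5 to 40.04 against 23.4 to 28.5 on flow cell 2. Its groups did not overlap within either flow cell. Efemp2 read 7.16 to 14.3 CPM against 0.575 to 3.34 on flow cell 1 without overlap, and 9.04 to 19.8 against 9.16 to 12.1 on flow cell 2 with overlap. The lowest of these values rest on few reads: 3 counts for Efemp2 and 5 for Emilin1 in ZT12-SED replicate 1. Both genes passed when ZT12-EX replicate 4 (adjusted p = 0.0287 for Emilin1 and 0.0326 for Efemp2, edgeR) or ZT0-SED replicate 6 (0.0290 and 0.0334) was left out. Emilin1 also passed without ZT12-SED replicate 5 (0.0407) or replicate 6 (0.0413). Efemp2 overlaps Mus81 on the opposite strand, which held 5432 counts over all libraries beside 3844 for Efemp2. No source used here gives the strand setting of the counting, so reads of the pair may not be told apart.

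The other fibulins and Lox did not pass in sedentary mice. The log2 fold changes were -0.39 ± 0.25 for Fbln1 (adjusted p = 0.253), -0.24 ± 0.19 for Fbln2 (0.385), -0.14 ± 0.22 for Fbln5, a fibulin that tethers elastin to cells (0.675), and -0.20 ± 0.30 for Lox (0.645), all by edgeR. Fbln2 went opposite ways on the flow cells. On flow cell 1 it read 57.5 to 68.5 CPM in ZT0-SED and 32.8 to 42.7 in ZT12-SED, all lower at ZT12. On flow cell 2 it read 63.9 to 70.7 CPM in ZT0-SED and 71.6 to 84.8 in ZT12-SED, all higher at ZT12. Lox averaged 9.20 CPM in ZT0-SED and 13.6 in ZT12-SED on flow cell 1, with overlap, and 6.50 and 3.37 on flow cell 2, without overlap.

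**Figure D2:**
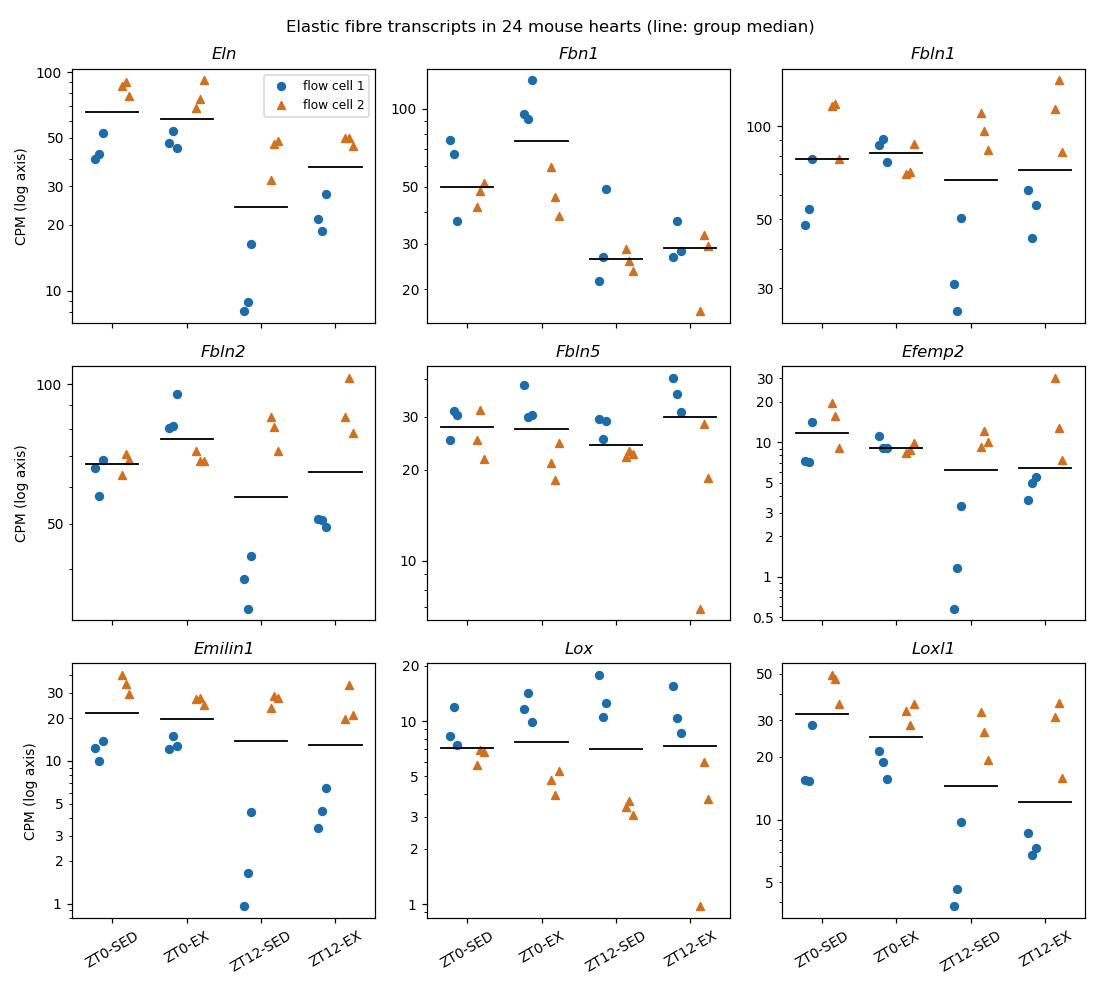
CPM of each member in each of 24 hearts (log axis), by group, with circles for flow cell 1, triangles for flow cell 2 and a line at the group median. For Eln, the ZT12-SED mice lie at 8.06 to 16.3 on flow cell 1 and at 32.0 to 48.6 on flow cell 2, each below the ZT0-SED mice of the same flow cell.

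The number of members called lower at ZT12 in sedentary mice depended on the flow cell and on GC content. On flow cell 1 alone 7 members passed (Eln, Fbn1, Fbln1, Fbln2, Efemp2, Emilin1 and Loxl1), among 6552 genes called of 15071 tested, or 43.5%. On flow cell 2 alone 0 passed, among 35 genes called of 15165 tested, or 0.231%; the estimates there were negative for 8 of 9 members. With GC offsets 1 member passed, Eln, beside 3.47% of all genes, and the Fbln1 and Fbln2 estimates turned to 0.01 ± 0.20 and 0.38 ± 0.16, neither past the threshold. Without the libraries with skeletal muscle transcripts 5 members passed, the 3 above with Emilin1 and Efemp2, but 20.1% of all genes passed in that fit against 5.20% with all libraries. With DESeq2 the same 5 passed, beside 19.1% of all genes. Without the 3 least correlated libraries 1 passed, Eln, beside 2.79% of all genes.

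**Figure D3:**
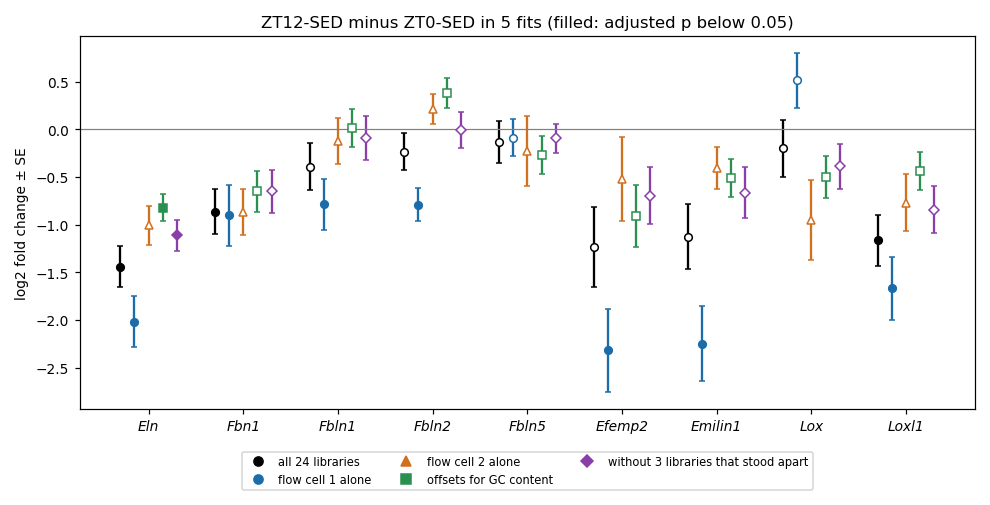
Log2 fold change of ZT12-SED over ZT0-SED with its SE for each member in 5 fits: all 24 libraries, flow cell 1 alone, flow cell 2 alone, GC offsets, and without the 3 libraries least correlated with the rest. Filled symbols have an adjusted p below 0.05; Eln is filled in 4 of the 5 fits, at -2.02 to -0.82, and open at -1.01 on flow cell 2 alone.

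In exercised mice, 2 of the 9 members, Fbn1 and Eln, were lower at ZT12 than at ZT0 and none was higher. Of all genes 1.65% passed, 0.811% higher and 0.837% lower. The median log2 fold change was -0.23 for the members and 0.018 for all genes. All 9 estimates were negative, beside 47.8% of all genes.

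Fbn1 read 91.4, 95.5 and 129 CPM in ZT0-EX on flow cell 1 and 38.6, 45.5 and 59.3 on flow cell 2. In ZT12-EX it read 26.7, 28.3 and 36.7 CPM on flow cell 1 and 16.4, 29.5 and 32.4 on flow cell 2. All 6 ZT12-EX mice were below all 6 ZT0-EX mice, flow cells pooled. The log2 fold change was -1.36 ± 0.24 (adjusted p = 0.0020, edgeR), and -1.24 ± 0.22 with GC offsets (adjusted p = 0.0014). It was -1.78 on flow cell 1 alone, where it passed (adjusted p = 0.0172, edgeR), and -0.82 on flow cell 2 alone, where it did not (0.368).

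Eln read 44.7, 47.3 and 53.5 CPM in ZT0-EX on flow cell 1 and 68.4, 75.4 and 91.8 on flow cell 2. In ZT12-EX it read 18.7, 21.4 and 27.8 CPM on flow cell 1 and 46.1, 49.8 and 50.1 on flow cell 2. The groups did not overlap within either flow cell. The log2 fold change was -0.91 ± 0.21 (adjusted p = 0.0200, edgeR), and -0.55 ± 0.14 with GC offsets (adjusted p = 0.0330, edgeR). The call was lost without ZT12-EX replicate 1 (adjusted p = 0.0599, edgeR), ZT12-EX replicate 2 (0.0536) or ZT0-EX replicate 2 (0.0719). On flow cell 1 alone the estimate was -1.09 ± 0.26 (adjusted p = 0.0529, edgeR) and on flow cell 2 alone -0.64 ± 0.20 (0.399), neither past the threshold. It did not pass with library totals (0.168) or without a flow cell term (0.659).

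Among the members that did not pass, Emilin1 stood at -0.84 ± 0.33 (adjusted p = 0.244, edgeR) and Loxl1 at -0.78 ± 0.26 (0.158). The remaining 5 were between -0.23 and -0.04. Fbln2 again went opposite ways: 80.5 to 95.0 CPM in ZT0-EX and 49.3 to 51.3 in ZT12-EX on flow cell 1, and 68.3 to 71.8 against 78.3 to 103 on flow cell 2. Loxl1 passed without the 3 least correlated libraries (-0.85 ± 0.23, adjusted p = 0.0303, edgeR), a fit in which 6.49% of all genes passed. ZT12-EX replicate 4 held the lowest Lox count of the series, 9, and the lowest Fbln5 count, 64.

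A single bout of treadmill running was not followed by a called difference in any of the 9 members at either time of day. At ZT0, 0 of 9 passed edgeR's test, 0 had an unadjusted p under 0.05, and 0 passed with DESeq2; the shares of all genes were 1.08%, 10.4% and 1.75%. At ZT12, 0 of 9 passed, 1 had an unadjusted p under 0.05 (Eln), and 0 passed with DESeq2; the shares of all genes were 0.294%, 16.4% and 1.48%. The 1 of 9 at ZT12 is not above the share of all genes. The members' median log2 fold change was -0.06 at ZT0, beside -0.008 for all genes, and 0.22 at ZT12, beside 0.064.

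At ZT0, the log2 fold change of ZT0-EX over ZT0-SED was 0.01 ± 0.21 for Eln (adjusted p = 0.988, edgeR) and 0.45 ± 0.23 for Fbn1 (0.502). The fibulins stood at 0.10 ± 0.25 for Fbln1, 0.26 ± 0.19 for Fbln2, -0.06 ± 0.22 for Fbln5 and -0.24 ± 0.40 for Efemp2. Emilin1 stood at -0.07 ± 0.33, Lox at -0.10 ± 0.29 and Loxl1 at -0.24 ± 0.26. Fbn1 and Fbln2 were wholly higher after exercise on flow cell 1, with Fbn1 at 91.4 to 129 CPM against 36.7 to 75.8, and overlapped on flow cell 2. Emilin1 and Lox were wholly lower after exercise on flow cell 2, where all 3 ZT0-EX libraries held skeletal muscle transcripts, and overlapped on flow cell 1. With 3 mice per group on a flow cell, how many of all genes part in this way was not counted. Without the libraries with skeletal muscle transcripts, 0 of 9 passed at ZT0, and the estimates were 0.85 ± 0.29 for Fbn1 (adjusted p = 0.493, edgeR), 0.61 ± 0.24 for Fbln1, 0.65 ± 0.22 for Fbln2 and 0.24 ± 0.25 for Eln. Emilin1 and Lox then stood at 0.43 ± 0.38 and 0.02 ± 0.43. That setting left ZT0-EX with its flow cell 1 mice only, so muscle transcripts and flow cell cannot be told apart there.

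At ZT12, Eln was 0.54 ± 0.21 higher on the log2 scale in ZT12-EX than in ZT12-SED (adjusted p = 0.250, edgeR), and Efemp2 0.85 ± 0.41 (0.308); neither passed. Efemp2 read 30.4 CPM in ZT12-EX replicate 4 and 3.74 to 12.9 in the other 5 ZT12-EX mice, and without that library the estimate was 0.36 ± 0.38. Without the 3 least correlated libraries, Eln stood at 0.19 ± 0.17, Efemp2 at -0.10 ± 0.31 and Fbln1 at 0.03 ± 0.24. Fbln1 stood at 0.37 ± 0.24, Fbln2 at 0.27 ± 0.19, Fbln5 at 0.04 ± 0.22, Emilin1 at 0.22 ± 0.33, Loxl1 at 0.15 ± 0.26, Fbn1 at -0.04 ± 0.23 and Lox at -0.08 ± 0.29. On flow cell 1 the exercised mice were wholly above the sedentary mice for Eln (18.7 to 27.8 against 8.06 to 16.3 CPM), Fbln2, Fbln5 and Efemp2. On flow cell 2 all 9 members overlapped, and for Eln the ranges were 46.1 to 50.1 and 32.0 to 48.6 CPM. The share of all genes that part so on a flow cell, with 3 mice per group, was not counted. The GC relation of the libraries also parted ZT12-EX from ZT12-SED on flow cell 1. Its part in these differences was not tested. With GC offsets the estimates of Fbln2, Emilin1, Lox and Loxl1 for exercise at ZT12 changed sign, as given below.

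The exercise effect at ZT12 was set against that at ZT0 with an interaction contrast, which is also the difference of the time-of-day effects in exercised and sedentary mice. It passed for 0 of 9 members, with 0 at an unadjusted p under 0.05 and 0 by DESeq2; the shares of all genes were 0.00%, 8.02% and 0.0327%. The log2 difference was 0.53 ± 0.29 for Eln (adjusted p = 0.571, edgeR), -0.49 ± 0.33 for Fbn1 (0.586) and 1.08 ± 0.58 for Efemp2 (0.571). Without ZT12-EX replicate 4 the Efemp2 difference was 0.62 ± 0.51, and without the 3 least correlated libraries it was 0.19 ± 0.39 and that of Eln 0.19 ± 0.21. Without the libraries with skeletal muscle transcripts, where ZT0-EX kept only its flow cell 1 mice, the Fbn1 difference was -0.99 ± 0.38. For the other 6 members the log2 difference with all libraries was between 0.004 and 0.38. The calls of Loxl1 in sedentary mice only, and the larger Fbn1 estimate in exercised mice, are therefore not shown to differ between them. The comparisons share groups, so their values are side by side and are not independent of each other.

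**Figure D4:**
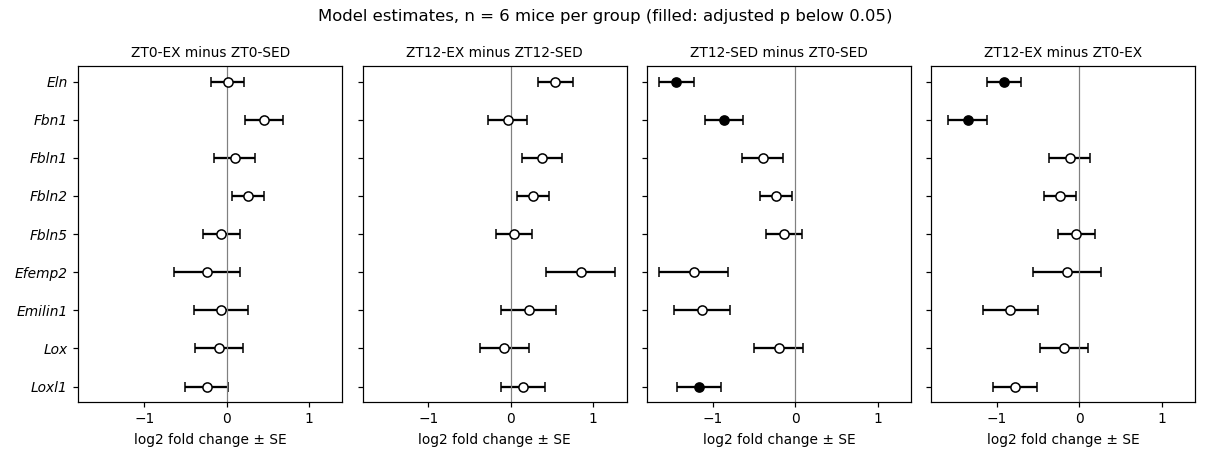
Log2 fold change with its SE (n = 6 mice per group) of each member for exercise at each time of day and for time of day in sedentary and exercised mice; filled points have an adjusted p below 0.05. The 5 filled points are Eln, Fbn1 and Loxl1 in sedentary mice and Eln and Fbn1 in exercised mice, all negative.

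Members differed between flow cells in an order close to that of their GC content. The mean over groups of the log2 CPM difference, flow cell 2 minus flow cell 1, was -1.42 for Lox (43.9% GC in its longest transcript), -0.57 for Fbln5 (46.9%) and -0.48 for Fbn1 (52.3%). It was 1.23 for Efemp2 (54.1%), 0.80 for Fbln1 (54.7%) and 0.41 for Fbln2 (57.0%). It was 1.18 for Eln (58.8%), 1.49 for Loxl1 (61.0%) and 2.14 for Emilin1 (61.1%). Eln, Emilin1 and Loxl1 were wholly higher on flow cell 2 in all 4 groups, and Lox wholly lower in all 4. The share of all genes that part in this way between flow cells was not counted. The difference was widest for Emilin1 in ZT12-SED, at 3.69, and smallest for it in ZT0-EX, at 0.99. These 9 points share libraries and are given as a description.

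**Figure D5:**
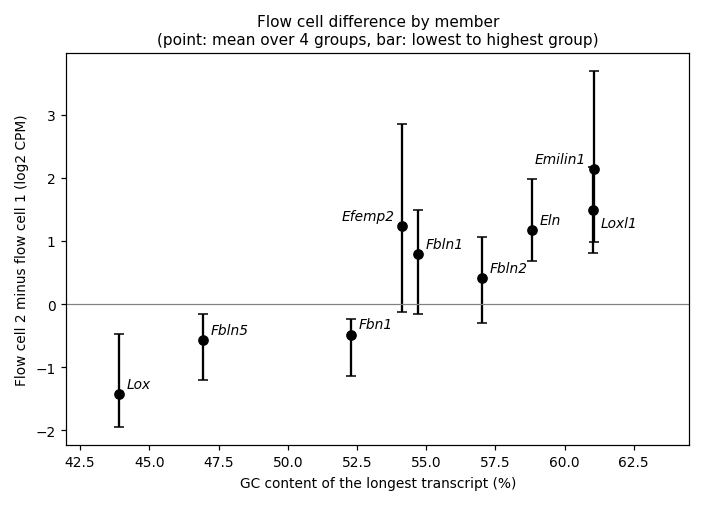
Flow cell 2 minus flow cell 1 in log2 CPM against the GC content of each member's longest transcript; the point is the mean over 4 groups and the bar runs from the lowest to the highest group. Lox, at 43.9% GC, lies at -1.42 and Emilin1, at 61.1% GC, at 2.14.

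Other genes of the fibre were counted from lists chosen with earlier results of these data known. Of 20 microfibril and elastic fibre partners (other fibrillins, fibulins, emilins, microfibril-associated proteins, latent TGF-β binding proteins, lysyl oxidases and ADAMTS proteins), 0 passed in sedentary mice by time of day, with 6 at an unadjusted p under 0.05 and 4 by DESeq2, near the shares of all genes (33.0% and 19.1%). In exercised mice 1 of the 20 fell at ZT12: Fbn2, the fibrillin of developing tissue, by 1.08 ± 0.24 on the log2 scale (adjusted p = 0.0187, edgeR), at 0.714 to 1.52 CPM against 1.24 to 3.67, with overlap. There 1.65% of all genes passed. An unadjusted p under 0.05 was reached by 6 of the 20 and by 14.3% of all genes. The median log2 fold change of the 20 was -0.33 in sedentary and -0.07 in exercised mice. With GC offsets it was -0.01 and 0.22. Of 5 enzymes that process or load lysyl oxidase and fibrillin (Bmp1, Tll1, Furin, Atp7a and Pcolce), 0 passed in any comparison; with edgeR, 1 had an unadjusted p under 0.05 in each time-of-day comparison and 0 in the others, and 0 passed with DESeq2. In exercised mice 14.3% of all genes had such a p, and 3.50% passed with DESeq2.

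Of 13 elastin-degrading proteases and inhibitors, 2 rose and 2 fell at ZT12 in sedentary mice. By the same test 2.46% of all genes rose and 2.74% fell. Timp3, an inhibitor of metalloproteinases that is held in the matrix, read 112 to 197 CPM in ZT0-SED and 319 to 579 in ZT12-SED, without overlap (log2 fold change 1.37 ± 0.20, adjusted p = 0.00021, edgeR). Timp4, another inhibitor of metalloproteinases, also rose (1.29 ± 0.21, adjusted p = 0.00061, edgeR). Mmp14, a membrane-bound matrix metalloproteinase, read 15.5 to 25.4 CPM in ZT0-SED and 3.98 to 10.8 in ZT12-SED, without overlap (-1.35 ± 0.22, adjusted p = 0.00045, edgeR). Mmp9, a gelatinase, fell (-1.28 ± 0.36, adjusted p = 0.0439, edgeR) at levels of at most 3.12 CPM. In exercised mice Timp3 (1.06 ± 0.20) and Ctsk, the elastin-cleaving cathepsin K (0.94 ± 0.21), rose, and Mmp14 (-1.01 ± 0.21) fell, with adjusted p of 0.0048, 0.0175 and 0.0110 by edgeR. There 0.811% of all genes rose and 0.837% fell. Values of these proteases and inhibitors with GC offsets or on each flow cell alone are not given here.

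Of 6 fibrillar collagens, which Lox and Loxl1 also cross-link, 4 fell at ZT12 in sedentary and 4 in exercised mice. The shares of all genes that fell were 2.74% and 0.837%. Col5a3 read 12.5 to 35.4 CPM in ZT0-SED and 0.767 to 9.20 in ZT12-SED, without overlap (log2 fold change -2.47 ± 0.28, adjusted p = 3.7e-06, edgeR). In exercised mice it stood at -2.63 ± 0.27 (adjusted p = 1.1e-06, edgeR). Col1a1 stood at -0.98 ± 0.23 and -1.27 ± 0.23 in the same order. The others called were Col3a1 and Col5a1, both just under the threshold in sedentary mice (adjusted p = 0.04996 each, edgeR). In exercised mice their adjusted p was 0.0473 and 0.0250 (edgeR). With GC offsets 1 of the 6 passed in sedentary and 2 in exercised mice, beside 531 and 403 of all 15294 genes. Of 10 TGF-β ligands, receptors and SMADs, 1 rose, in sedentary mice: Tgfbr3, the co-receptor betaglycan (0.70 ± 0.15, adjusted p = 0.0091, edgeR). The share of all genes that rose there was 2.46%. No gene of these 5 lists passed edgeR's test for exercise at ZT0, at ZT12 or for their difference. An unadjusted p under 0.05 was reached by 3 partners and 3 proteases or inhibitors at ZT0, by 6, 2 and 1 of the TGF-β genes at ZT12, and by 2, 3 and 1 for the difference. The shares of all genes with such a p were 10.4%, 16.4% and 8.02% in the same order. With DESeq2, 2 partners passed at ZT12, beside 1.48% of all genes, and none of the 5 lists' genes in the other 2.

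Markers of the cells that make elastic fibres were measured in the same libraries. In bulk heart, fewer cells of a type and less RNA per cell cannot be told apart. The summed CPM of 8 fibroblast markers ran from 2168 to 3519 in ZT0-SED and from 2116 to 3423 in ZT0-EX. At ZT12 it ran from 2213 to 4039 in sedentary and from 2041 to 4378 in exercised mice. None of the 8 passed between times of day in edgeR, where 2 had an unadjusted p under 0.05 in sedentary mice and 1 passed with DESeq2. Of all genes, 33.0% had such a p in sedentary mice and 19.1% passed with DESeq2. Tcf21, a fibroblast transcription factor, fell with exercise at ZT0 (-0.94 ± 0.21, adjusted p = 0.0270, edgeR), where 1.08% of all genes passed. The sum of 6 smooth muscle markers ran from 160 to 386 CPM in ZT0-SED and from 154 to 481 in ZT0-EX. At ZT12 it ran from 34.7 to 419 in sedentary and from 155 to 467 in exercised mice. Of these, Acta2, smooth muscle actin, fell at ZT12 in sedentary mice by 1.08 ± 0.27 on the log2 scale (adjusted p = 0.0233, edgeR), beside the fall of Eln, and 0 of 6 passed in exercised mice (0 at an unadjusted p under 0.05 and 0 by DESeq2). The shares of all genes passing in edgeR were 5.20% in sedentary and 1.65% in exercised mice. In sedentary mice all 6 smooth muscle estimates were negative, as were 50.5% of all genes, with a median log2 fold change of -0.68. There 2 of the 6 had an unadjusted p under 0.05, beside 33.0% of all genes. The median smooth muscle sum was 221 CPM in ZT0-SED and 140 in ZT12-SED. In exercised mice 2 of the 6 were negative and the median log2 fold change was 0.15. For exercise at ZT12, 0 of the 6 passed in edgeR, 5 had an unadjusted p under 0.05 and 4 passed with DESeq2. The shares of all genes there were 0.294%, 16.4% and 1.48%. In the same comparison 4 atrial markers (Myl7, Sln, Myl4 and Nppa) had a median log2 fold change of 1.80, with 0 passing in edgeR, 3 at an unadjusted p under 0.05 and 0 passing with DESeq2. Their sum ran from 49.8 to 2392 CPM in ZT12-SED and from 309 to 8422 in ZT12-EX. The part of smooth muscle and atrial tissue in the values of Eln and the other members was not tested.

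Further cell markers moved in the same sedentary comparison. Vtn, 1 of 4 pericyte markers, and Egfl7, 1 of 6 endothelial markers, were lower at ZT12 (-1.07 ± 0.28, adjusted p = 0.0296, and -1.09 ± 0.31, adjusted p = 0.0416, edgeR). The other 3 pericyte markers did not pass, with log2 fold changes of 0.42 ± 0.22 for Rgs5, 0.50 ± 0.35 for Abcc9 and -0.24 ± 0.19 for Kcnj8. The pericyte sum ran from 424 to 929 CPM in ZT0-SED (median 555) and from 480 to 1370.5 in ZT12-SED (median 693). The summed endothelial markers were 616 to 776 CPM in ZT0-SED and 421 to 682 in ZT12-SED. Cardiomyocyte markers summed to 38807 to 74679 CPM in ZT0-SED and 18557 to 53516 in ZT12-SED, with 0 of 6 passing in edgeR, 3 at an unadjusted p under 0.05 and 3 passing with DESeq2. In this sedentary comparison the shares of all genes were 5.20%, 33.0% and 19.1%. Macrophage and mesothelial markers had 0 of 4 and 0 of 5 passing in every comparison by edgeR and by DESeq2, with 1 of each list at an unadjusted p under 0.05, in sedentary mice. No marker of these classes was at 0 in any library.

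The genes whose levels across the 24 libraries were most like the mean of the 9 members were Col6a1, Col6a2, Maged1, Rab5c and Sec13. Both sides were log2 CPM with the mean of each flow cell removed, and Pearson's r was 0.947, 0.938, 0.936, 0.935 and 0.932. Col6a1 and Col6a2 encode chains of the microfibrillar collagen VI. The mean log2 CPM of Col6a1 was 6.09 in ZT0-SED, 6.15 in ZT0-EX, 5.20 in ZT12-SED and 5.43 in ZT12-EX. The libraries share GC content differences and depth, and no test goes with these values.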

How the data were processed

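Poly-A RNA was extracted with Trizol and made into TruSeq libraries, per the labels' protocols. The authors trimmed reads with Trimmomatic 0.39, aligned them to GRCm39 with HISAT2 2.2.1 and used featureCounts 2.0.1 for counting, which the submitters' processing notes list. The deposited values are raw counts per gene. No source used here gives the annotation release or strand setting. Totals per library set the precision, and p-values measure the spread between mice.

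Counts were fitted with edgeR 4.0.16 (R 4.3.3): filterByExpr by group, TMM scaling, group and flow cell terms, the robust quasi-likelihood test with 19 residual degrees of freedom, and Benjamini-Hochberg adjustment over 15294 genes. CPM used the library totals of the genes that passed the filter, multiplied by the TMM factors. GC content and exon length were matched by Ensembl identifier from a GRCm38 annotation for 99.5% of genes. Symbols were matched for 52093 genes; the other 257 held 0.00128% of counts. GC offsets were a lowess (span 0.3) on GC content, per library, of each gene's log2 CPM relative to its mean over all libraries. DESeq2 1.42.0, other scalings, no filter, each flow cell alone, replicate blocks and leaving out libraries were alternatives. The script was tested on simulated data.

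The members and lists were chosen with earlier results of these data known. Named genes are all 9 members, up to 4 called genes of each list per comparison with the smallest p, and the 5 genes most correlated with the mean of the members, predicted genes skipped. No pair of libraries of 1 group agreed within sampling noise (60 pairs, lowest chi-square per degree of freedom 14.1).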

Additional observations from a re-analysis of the deposited data

Results flagged for a closer look

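Of 36 sets of 6 mice, the 9 members in each of the 4 groups, 1 held a mouse far from the others on the log2 CPM scale. In ZT12-SED, Fbn1 read 49.1 CPM in replicate 3 and 21.5 to 28.7 CPM in the other 5 mice. The gap to the nearest mouse was 0.650 of the whole range of the group, above the critical value of 0.625 in Dixon's test for 6 values. Chance marks about 1 in 20 groups. The value was kept in all fits.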

How the results depend on the processing

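The number of members called was 0 for exercise at ZT0, exercise at ZT12 and their difference in every alternative run, each with edgeR unless DESeq2 is named. For time of day in sedentary mice, 3 were called. The number was 2, with Fbn1 lost, with library totals and with the compared groups alone, 5 with DESeq2, 0 without a flow cell term, 7 on flow cell 1 alone, 0 on flow cell 2 alone, 1 with GC offsets, 5 without the libraries with skeletal muscle transcripts and 1 without the 3 least correlated libraries. The last 2 alternatives were chosen after seeing the data. It was 2 to 5 when 1 library was left out, with 5 without ZT12-EX replicate 4 or ZT0-SED replicate 6. For time of day in exercised mice, 2 were called, and 1 (Fbn1) with library totals, without a flow cell term and on flow cell 1 alone, 0 on flow cell 2 alone, where 3 mice per group were fitted, and 3, with Loxl1 gained, without the 3 least correlated libraries. It was 1 to 2 when 1 library was left out, with 1 without ZT12-EX replicate 1, ZT12-EX replicate 2 or ZT0-EX replicate 2. The cause of these changes was not tested beyond the samples each setting leaves out.

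Replicate numbers 1 to 6 are shared by the groups. Over 36 same-numbered pairs, deviations from the group and flow cell means correlated at -0.573 to 0.728 (median -0.057), and with other numbers of the same flow cell at a median of -0.086; 10 of 24 libraries correlated best with their own number. Whether same-numbered samples share anything besides the number cannot be told from these values. With the replicate block, 2 members were called in sedentary mice, Eln and Loxl1, and 2 in exercised mice; with the block and GC offsets together, 1 (Eln) and 2.

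Library totals in place of TMM moved the median log2 fold change of all genes to 0.196 for exercise at ZT12, 0.118 for the difference and -0.178 for time of day in sedentary mice. The share of higher genes among all genes called in sedentary mice was 47.3%, and 29.5% with library totals and 61.6% with GC offsets, with 795, 234 and 531 genes called. In exercised mice 252 genes were called, 85 with library totals, 62 without a flow cell term, 190 on flow cell 1, 17 on flow cell 2 and 403 with GC offsets. With DESeq2, 2917 genes were called in sedentary and 535 in exercised mice, 226 for exercise at ZT12 and 5 for the difference.

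None of the estimates that changed sign had passed the test. Without a flow cell term, estimates that turned sign were Eln -0.031, Fbln1 -0.028 and Lox 0.084 for exercise at ZT0, Lox -0.23 for the difference of exercise effects, Lox 0.10 by time of day in sedentary mice, Fbln1 0.044 and Efemp2 0.19 by time of day in exercised mice. On flow cell 2 alone, estimates that turned sign were Eln -0.15, Fbn1 -0.013 and Fbln1 -0.49 for exercise at ZT0, Fbn1 0.034, Fbln5 -0.29, Emilin1 -0.058 and Lox 0.14 for exercise at ZT12, Fbn1 0.048 for the difference of exercise effects, Fbln2 0.21 by time of day in sedentary mice, Fbln1 0.61, Fbln2 0.41 and Efemp2 0.96 by time of day in exercised mice. With the compared groups alone, estimates that turned sign were Eln -0.013 for exercise at ZT0. With GC offsets, estimates that turned sign were Eln -0.065 for exercise at ZT0, Fbln2 -0.12, Emilin1 -0.033, Lox 0.12 and Loxl1 -0.21 for exercise at ZT12, Fbln2 -0.30 for the difference of exercise effects, Fbln1 0.013 and Fbln2 0.38 by time of day in sedentary mice, Fbln1 0.10 and Fbln2 0.079 by time of day in exercised mice. With the replicate block and GC offsets, estimates that turned sign were Eln -0.067 for exercise at ZT0, Fbln2 -0.12, Emilin1 -0.054, Lox 0.088 and Loxl1 -0.23 for exercise at ZT12, Fbln2 -0.31 for the difference of exercise effects, Fbln1 0.0070 and Fbln2 0.37 by time of day in sedentary mice, Fbln1 0.063 and Fbln2 0.054 by time of day in exercised mice. On flow cell 1 alone, estimates that turned sign were Fbln5 0.18, Efemp2 0.041, Emilin1 0.13 and Lox 0.38 for exercise at ZT0, Lox -0.57 for the difference of exercise effects, Lox 0.51 by time of day in sedentary mice, Fbln5 0.12 by time of day in exercised mice. Without the libraries with skeletal muscle transcripts, estimates that turned sign were Fbln5 0.014, Efemp2 0.36, Emilin1 0.43, Lox 0.022 and Loxl1 0.13 for exercise at ZT0, Fbln1 -0.17, Fbln2 -0.36, Emilin1 -0.0098 and Lox -0.18 for the difference of exercise effects. In that setting ZT0-EX kept only its flow cell 1 mice. With library totals, estimates that turned sign were Fbn1 0.075 and Lox 0.19 for exercise at ZT12. Without the 3 least correlated libraries, estimates that turned sign were Efemp2 -0.10, Emilin1 -0.18, Lox 0.34 and Loxl1 -0.26 for exercise at ZT12, Fbln1 -0.035, Fbln2 -0.24, Emilin1 -0.082 and Loxl1 -0.0027 for the difference of exercise effects, Fbln5 0.15 and Lox 0.0048 by time of day in exercised mice. With DESeq2, estimates that turned sign were Lox -0.00098 for the difference of exercise effects. With the replicate block, estimates that turned sign were Lox -0.049 for the difference of exercise effects. Leaving out 1 library at a time, the estimates that turned sign at least once ranged as Eln -0.078 to 0.10, Fbln1 -0.029 to 0.21, Fbln5 -0.14 to 0.049, Efemp2 -0.42 to 0.025, Emilin1 -0.23 to 0.050, Lox -0.23 to 0.016 for exercise at ZT0, Fbn1 -0.16 to 0.10, Fbln5 -0.065 to 0.24, Lox -0.25 to 0.10, Loxl1 -0.025 to 0.31 for exercise at ZT12, Fbln2 -0.10 to 0.11, Fbln5 -0.015 to 0.29, Lox -0.16 to 0.18 for the difference of exercise effects, Fbln1 -0.25 to 0.011, Fbln5 -0.13 to 0.15, Efemp2 -0.53 to 0.025 by time of day in exercised mice. Of 576 member values under the alternatives other than leaving out single libraries, 477 kept direction and side of the threshold, 70 changed sign, 20 lost the call and 9 gained it. Depth limits Efemp2, Emilin1 and Lox most, with 3, 5 and 9 counts in their lowest libraries.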
